A study of Mus musculus with 41 samples.

Results

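The genes described here are 38 genes that copy DNA in S phase: the Mcm helicase and its loaders, the replicative polymerases, the sliding clamp and its loaders, the enzymes that join and repair new strands, the enzymes that make deoxynucleotides, and factors that pack new DNA. They were chosen by name, with earlier results of these data known, and all 38 were found by symbol among the 19434 genes of the count table. All 38 had enough reads to be tested in both experiments of the study. They are spread over the genome (mm10), from Mcm3 on chromosome 1 (20802974 to 20820278, minus strand) to Pola1 on chromosome X (93304767 to 93632155, minus strand).

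The study examined Uhrf1, whose product binds hemimethylated DNA behind the replication fork and brings in the maintenance DNA methyltransferase, in mouse Treg cells, the Foxp3-expressing CD4 T cells that restrain immune responses. RNA from 41 sorted libraries was sequenced. In the first experiment, CD25-high, Foxp3-YFP positive cells came from 8-week-old females that were either Uhrf1fl/flFoxp3+/YFP-Cre (chimeric knockouts, n = 4) or Uhrf1+/+Foxp3YFP-Cre/YFP-Cre (controls, n = 4). Foxp3 drives the Cre recombinase in both, and since it lies on the X chromosome the chimeric females are mosaics in which Treg cells without Cre persist beside those with it.

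In the second, pulse-chase experiment, every mouse carried Foxp3GFP-CreERT2, a Foxp3-driven Cre that acts only with tamoxifen, and Rosa26SorCAG-tdTomato, a red reporter that Cre switches on for good. The mice were Uhrf1fl/fl (fl/fl, n = 6 libraries of each population) or Uhrf1+/+ (controls, n = 5 of each), and both genotypes were fed tamoxifen in their chow over 2 weeks, followed by 4 weeks without it, so the controls had Cre activity too. The age is given as 8 weeks. Sorting gave 3 populations from each: labeled Treg cells (GFP+tdTomato+), ex-Foxp3 cells (GFP-tdTomato+) and post-tamoxifen Treg cells (GFP+tdTomato-). Ex-Foxp3 cells carry the mark but no longer show the GFP tied to Foxp3, though their libraries still held some Foxp3 RNA, given below. Post-tamoxifen Treg cells never took the mark.

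Cells copy their genome once per division. In G1 the Mcm2 to Mcm7 ring is loaded on DNA with the help of Cdc6 and Cdt1, in S phase Cdc45 and the GINS complex turn it into an active helicase, and polymerases, the clamp Pcna and ligase then build the new strands while ribonucleotide reductase feeds them. Most of these genes are transcribed as cells pass from G1 into S under E2F factors, which bind near their start sites, so in a sorted T cell population their mRNA is commonly read as a sign of cycling. In bulk RNA, fewer cycling cells and less RNA of these genes per cell cannot be told apart.

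Promoters show the E2F words that some of these genes carry. A search of the RefSeq promoter windows (GRCm38.p6, 250 bases before to 50 after the start) for the words TTTGGCGC, TTTCGCGC, TTTCCCGC and TTTGCCGC on both strands found at least one in 10 of the 30 members with a window (33.3%), against 373 of the 7479 tested genes with a window (5.0%) and 704 of all 27025 genes with one (2.6%). The 10 were Mcm3, Mcm5, Mcm6, Mcm7, Cdc6, Cdt1, Pola1, Pold1, Rfc3 and Lig1. CCAAT stood in 17 of the 30 (56.7%, against 43.5% of tested genes) and TTTGAA in 3 (10%, against 14.2%). These matches describe letters, base composition was not matched, and they were compared with no binding data. The 180 bases just before the start are shown for 3 holders of a word and for Mcm2, which holds none. They are read 5′ to 3′ on the gene's strand, and capitals mark the E2F words or their reverse complements.
Mcm5, chr8:75109329-75109508, plus strand: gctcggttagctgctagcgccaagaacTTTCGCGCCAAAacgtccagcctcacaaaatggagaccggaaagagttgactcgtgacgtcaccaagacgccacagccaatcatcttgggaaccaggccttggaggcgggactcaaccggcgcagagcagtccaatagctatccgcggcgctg
Mcm6, chr1:128359706-128359885, minus strand: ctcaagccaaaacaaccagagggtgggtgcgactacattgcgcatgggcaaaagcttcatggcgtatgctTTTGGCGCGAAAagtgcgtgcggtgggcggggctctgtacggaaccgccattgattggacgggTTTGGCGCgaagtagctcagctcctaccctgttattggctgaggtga
Pola1, chrX:93632156-93632335, minus strand: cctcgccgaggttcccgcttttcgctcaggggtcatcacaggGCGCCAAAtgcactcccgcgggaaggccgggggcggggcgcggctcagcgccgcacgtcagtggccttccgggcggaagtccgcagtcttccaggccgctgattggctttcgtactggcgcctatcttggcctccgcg
Mcm2, chr6:88898781-88898960, minus strand: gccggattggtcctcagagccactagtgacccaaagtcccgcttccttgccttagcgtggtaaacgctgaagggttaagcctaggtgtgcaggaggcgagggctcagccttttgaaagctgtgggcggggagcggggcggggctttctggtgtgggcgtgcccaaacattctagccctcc
The capitals in Mcm5 are 2 overlapping words whose first letters lie 153 and 149 bases before the start. Mcm6 has 3 words, at 110, 106 and 47 bases, of which the first 2 overlap, and Pola1 has 1 at 138 bases. Mcm2 belongs to the same ring as Mcm5 and Mcm6. In the comparison with the most calls, given further on, Mcm2 and Mcm5 were both called lower, and Mcm6 and Pola1 were not called. The sequences shown were picked by p in that same comparison, among windows that overlap no annotated exon. They are the 3 genes of smallest p with a word there, and the gene of smallest p with none. These calls therefore cannot say whether words and calls go together.

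Some libraries stood apart, and values without them are given where the count of called members moved by over 1.5 times and for the medians that moved most. Totals ran from 781437 counts in post-tamoxifen control 1 to 5709702. In the chimera, Uhrf1 was 32.5, 22.4, 23.4 and 22.3 CPM (counts scaled to library size) in controls and 12, 8.66, 9.27 and 22.3 in knockouts 1 to 4, so knockout 4 was no lower than the controls (log2 fold change -0.95 ± 0.25 (SE), adjusted p = 0.0378, edgeR). The table counts whole genes, so reads from outside the floxed part are included. In the pulse-chase Uhrf1 was not called between genotypes: it was at -0.15 in labeled cells (adjusted p = 0.961) and had a log2 fold change of 1.62 (adjusted p = 0.113) in post-tamoxifen cells, which Cre had not marked. Chimera control 1, labelled female, held 429 CPM of Y-linked reads. Pulse-chase controls 2 and 3 held 328 to 456 CPM of them in all 3 populations, and all other libraries at most 2.31. Foxp3 was 13.3 to 151 CPM in ex-Foxp3 libraries and 287 to 537 in the others of the pulse-chase, except post-tamoxifen control 2 (123) and fl/fl 3 (128). T cell markers were present in every library (sums of 2723 to 3943 CPM). Myeloid marker sums were 41.0 to 664 CPM in control and 112 to 987 CPM in fl/fl post-tamoxifen libraries, and at most 66.2 CPM in the other pulse-chase groups. Of the 38 genes, 13 have exons that overlap a gene on the opposite strand (Mcm7, Cdc45, Gins2, Pole, Rfc2, Rfc4, Rfc5, Dscc1, Fen1, Lig1, Tk1, Chaf1a and Slbp). The strand setting of the counting is not given in the sources used here, so reads from the overlapping stretches cannot be told apart from those of the neighbours. In GENCODE gene models the overlap covers 2039 of 2422 exon bases of Fen1, 2758 of 4097 of Gins2 and 4648 of 8854 of Chaf1a, but 78 of 11160 of Pole and 83 of 5198 of Tk1. The bounds in the count table lay within 1 kb of those models for 35 of the 38 genes. Chaf1a ended at 56068026 in the count table and at 56072289 in GENCODE, so part of its overlap may lie outside the counted gene.

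Summed over the 38, ex-Foxp3 cells had the lowest means and the smallest spread of the 3 pulse-chase populations, with 1217, 1328, 1301, 1016 and 1144 CPM in controls 1 to 5 and a lowest, median and highest of 1112, 1167 and 1312 in fl/fl mice. Labeled controls 1 to 5 held 1546, 1970.4, 2226, 1052 and 1142 CPM, and labeled fl/fl cells ran from 1149 over 1781 to 2912. Post-tamoxifen controls held 1821, 1223, 1412, 1077 and 1127 CPM, and post-tamoxifen fl/fl cells ran from 1184 over 2050.2 to 3264. Every labeled and post-tamoxifen fl/fl library numbered 1 to 3 (2265 to 3264 CPM) lay above every one numbered 4 to 6 (1149 to 1446 CPM). In the chimera the sum was 1312, 1315, 1433 and 1428 CPM in controls and 1262, 1261, 1244 and 1379 in knockouts, so the groups overlapped.

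**Figure D1:**
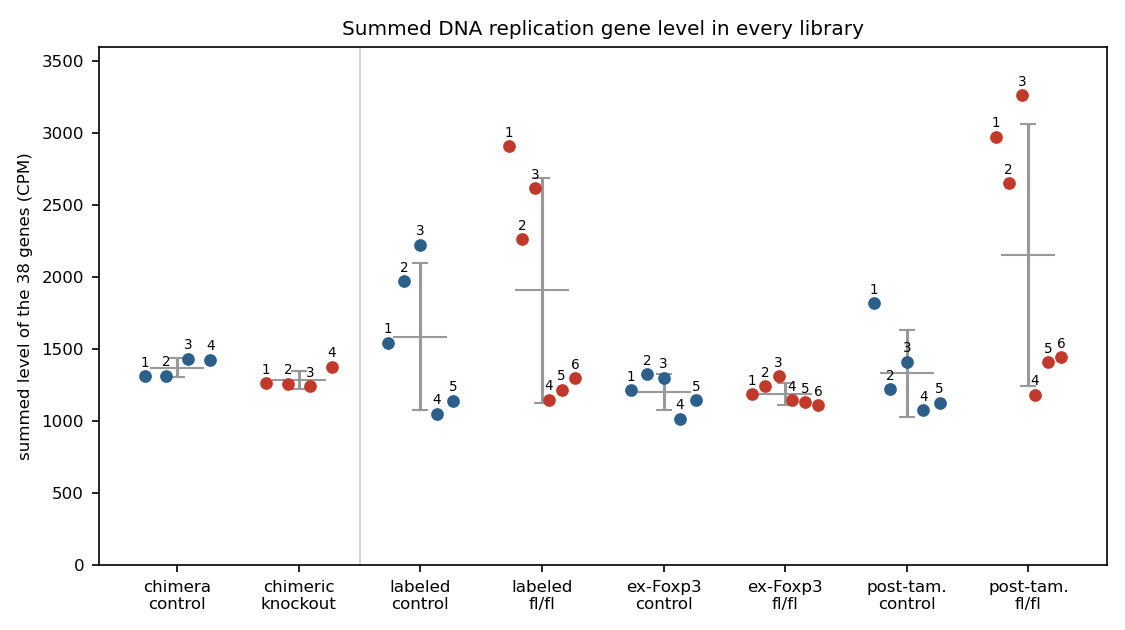
Summed level of the 38 genes (y axis, CPM) in each of the 41 libraries (points, with their number), by group, with mean ± SD in grey; red marks chimeric knockout and fl/fl libraries and blue controls. Labeled and post-tamoxifen fl/fl libraries 1 to 3 reach 2265 to 3264 CPM and libraries 4 to 6 stay between 1149 and 1446, while all ex-Foxp3 libraries lie between 1016 and 1328.

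The same split was seen gene by gene. Of the 38 genes, 31 were higher in every post-tamoxifen fl/fl library numbered 1 to 3 than in every one numbered 4 to 6 (16.1% of all tested genes did so), and 33 were in labeled fl/fl cells (11.7%). In labeled controls it was 29 of 38 (15.4%), in post-tamoxifen controls 15 (9.17%), in ex-Foxp3 controls 9 (11%) and in ex-Foxp3 fl/fl cells 8 (9.98%). The median log2 ratio of libraries 1 to 3 over the later ones was 1.27 in labeled fl/fl, 1.26 in post-tamoxifen fl/fl and 0.84 in labeled control cells, but 0.25 and 0.26 in control and fl/fl ex-Foxp3 cells. The labels name no batch, and the place of the split was read from these values, so this is a description, and what sets the libraries apart was not tested.

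The members also varied together within groups. Across the 33 pulse-chase libraries, after each gene's group mean was taken off, the Pearson correlation of log2(CPM + 1) was above 0 for all 703 pairs of members (median 0.62, range 0.048 to 0.91). With the mean of each number range taken off as well, 554 of 703 pairs were above 0 and the median was 0.20. These libraries share the split by number, and total counts enter every value. Rrm2, the regulated subunit of ribonucleotide reductase, followed the rest most closely (r = 0.94 with the mean of the other members), then Pcna and Mcm3 (0.93 each). Cdt1 and Rfc3 followed it least (0.50 each). The tested genes outside the list that were most like the module were Prc1 (0.97), Hist1h1a (0.964), H2afx (0.96), Kif15 (0.958), Lmnb1 (0.956), Dlgap5 (0.954), Kif11 (0.953), Hmgn2 (0.951), Kpna2 (0.95) and Hist1h1d (0.949), over the same 33 libraries, while the median tested gene was at -0.018.

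The spread between libraries of one group was wide for these genes. Its median over members was 0.63 on the log2(CPM + 1) scale, against 0.31 over all tested genes, and 35 of the 38 lay above the latter. It was widest for Rrm2 (SD 1.41), Cdc6 (1.32) and Mcm10 (1.30), and narrowest for Pold1 (0.26), Rfc1 (0.31) and Rfc2 (0.31). Per length, the most abundant members over the pulse-chase libraries were Mcm6 (mean 38.7 RPKM, counts per kilobase of gene model scaled to library size), Mcm4 (33.2), Mcm3 (28.0) and Pcna (25.8). Exo1 (0.535 RPKM) and Dscc1 (0.861) were the rarest. Mcm2 to Mcm7 held 41.1% of the summed CPM.

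**Figure D2:**
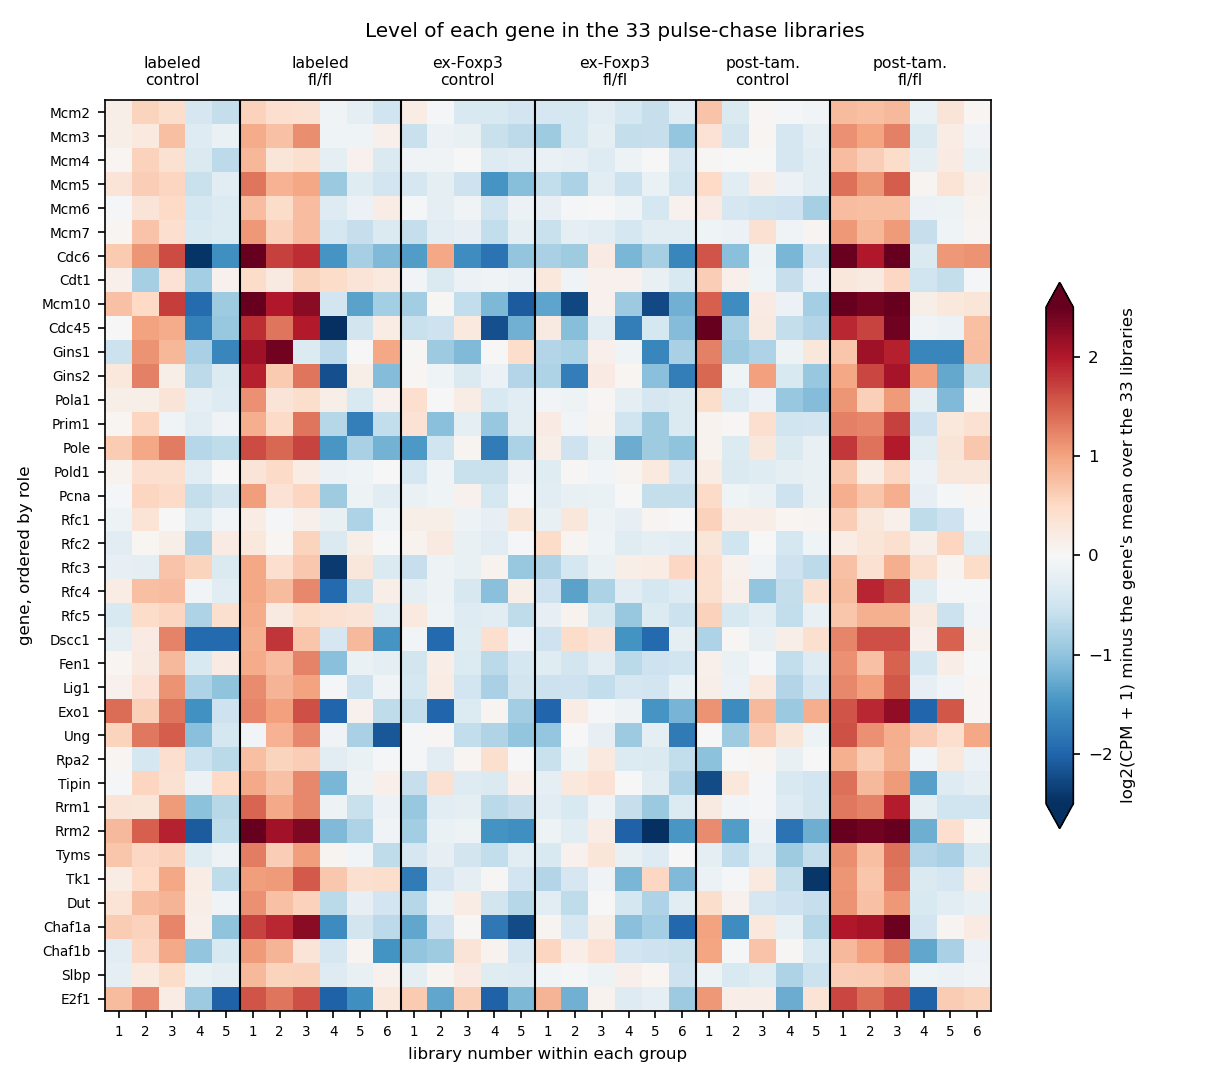
Level of each of the 38 genes (rows) in the 33 pulse-chase libraries (columns, by group and number), as log2(CPM + 1) minus the gene's mean over the 33 libraries, with colours ending at ± 2.5 (11 of 1254 cells lie beyond). Red bands over labeled and post-tamoxifen fl/fl libraries 1 to 3 run through most rows, and Rfc1, Rfc2, Cdt1 and Pold1 stay pale.

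Transcripts of G2 and mitosis were high in the same libraries. The summed level of a list of 34 G2/M genes was 5694, 4222 and 7008 CPM in post-tamoxifen fl/fl libraries 1 to 3 and 462, 710.1 and 761 in libraries 4 to 6. In ex-Foxp3 fl/fl libraries it was 1012, 841 and 1264 CPM in 1 to 3 and 436, 469 and 496 in 4 to 6. In post-tamoxifen control 1, the control library with the most of both among its group, it was 2077 CPM beside a replication sum of 1821. B cell markers summed to 604, 193 and 243 CPM in post-tamoxifen fl/fl libraries 1 to 3, and to at most 31.4 in libraries 4 to 6 (11 of 12 markers detected in the group, Vpreb3 at 0). Their part in the levels of the replication genes was not tested.

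**Figure D3:**
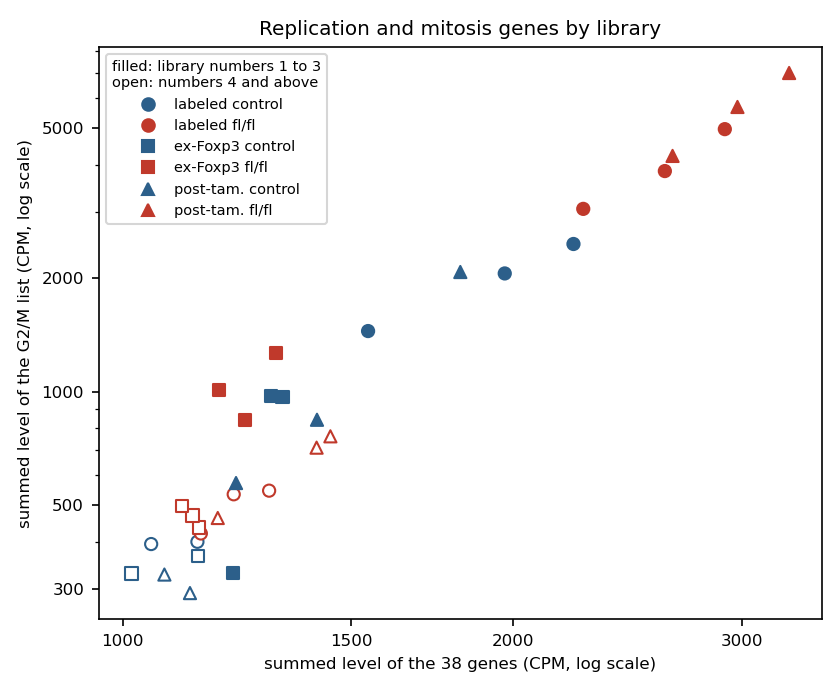
Summed level of the 38 genes (x axis, CPM, log scale) against that of the 34 G2/M genes (y axis, CPM, log scale) in the 33 pulse-chase libraries, circles for labeled, squares for ex-Foxp3 and triangles for post-tamoxifen cells, red for fl/fl and blue for control, filled for libraries 1 to 3 and open for later ones. Both sums are high in the filled labeled and post-tamoxifen fl/fl points and no open point is above 1446 CPM on the x axis or 761 CPM on the y axis.

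The clearest change of these genes was between ex-Foxp3 and post-tamoxifen Treg cells of fl/fl mice, where 22 of the 38 genes were lower in ex-Foxp3 cells, none was higher, and all 38 fold changes were negative. The median log2 fold change was -1.08, a 2.11-fold lower level, beside 0.015 for the median over all tested genes. By edgeR's quasi-likelihood test with Benjamini-Hochberg adjustment at 0.05, 57.9% of the members were called lower, against 9.39% of the 9921 tested genes (15.2% called in either direction). All 4 of the flap, ligation and repair genes were called lower, 4 of 6 Mcm genes, 2 of 3 licensing genes, 2 of 3 helicase partners, 2 of 4 polymerase genes, 3 of 7 clamp and clamp-loader genes, 3 of 5 nucleotide genes, 1 of 2 genes for single strands and fork protection, and 1 of 3 chromatin genes, and E2f1 was not called.

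Among the Mcm genes, which encode the 6 subunits of the helicase ring, Mcm3 ran from 74.8 over 151 to 233 CPM (lowest, median, highest) in post-tamoxifen and from 49.1 over 63.9 to 81.0 in ex-Foxp3 fl/fl cells, with 123 to 538 reads per library behind these values. The 2 groups overlap only through post-tamoxifen library 4. The log2 fold change of Mcm3 was -1.26 ± 0.26 (adjusted p = 0.00168, edgeR). Mcm2 ran from 71.1 over 118 to 140.1 CPM against 53.0 over 58.7 to 66.4, and Mcm5 from 54.0 over 88.2 to 147 against 29.1 over 35.3 to 45.2. For both, every ex-Foxp3 library lay below every post-tamoxifen library. Mcm2 fell by 0.89 ± 0.21 (adjusted p = 0.00354) and Mcm5 by 1.37 ± 0.33 (adjusted p = 0.00495) on the log2 scale. Mcm7 fell by 0.88 ± 0.28 (adjusted p = 0.0304), while Mcm4 (-0.52 ± 0.19, adjusted p = 0.0564) and Mcm6 (-0.51 ± 0.20, adjusted p = 0.0871) did not pass, though both did with the library number as a block (adjusted p = 0.00403 and 0.0284). Subunits of 1 ring thus had fold changes from -0.51 to -1.37, but the differences between subunits were not tested.

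The largest falls among the 38 were of Mcm10 and Cdc6. Mcm10 (chromosome 2, 4989714 to 5012791, minus strand), which helps to start the helicase, was 43.3, 34.4 and 62.0 CPM in post-tamoxifen fl/fl libraries 1 to 3 and 6.46, 7.07 and 7.34 in 4 to 6, against 0.388 to 6.19 in ex-Foxp3 cells. These are 8 to 143 reads against 1 to 13, and the groups did not overlap. It fell by 3.62 ± 0.86 on the log2 scale (adjusted p = 0.00488, edgeR). Cdc6, a loader of the ring, ran from 3.23 over 15.8 to 34.3 CPM in post-tamoxifen and from 0.768 over 2.00 to 5.24 in ex-Foxp3 cells, overlapping only where ex-Foxp3 library 3 exceeded post-tamoxifen library 4. Its log2 fold change was -3.01 ± 0.85 (adjusted p = 0.0166). Cdt1, the other loader, was not called. It ran from 16.8 over 28.0 to 37.7 CPM against 19.6 over 26.3 to 31.3, a log2 fold change of -0.073 ± 0.21 (adjusted p = 0.861). The protein is known to be controlled by its degradation in S phase. The 2 groups of Cdt1 overlapped over most of their range.

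Of the partners that turn the ring into a helicase, Cdc45 fell by 2.27 ± 0.74 (adjusted p = 0.035) and Gins2 by 2.14 ± 0.67 (adjusted p = 0.0258) on the log2 scale. Gins1 had a fold change of similar size (-2.26 ± 0.83) that did not pass (adjusted p = 0.0564, edgeR). It was counted with 0 to 32 reads per post-tamoxifen and 0 to 5 per ex-Foxp3 fl/fl library.

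Polymerase genes divided. Pole, the catalytic subunit of the leading-strand polymerase, ran from 20.3 over 53.1 to 102 CPM in post-tamoxifen and from 10 over 15.1 to 27.9 in ex-Foxp3 fl/fl cells, and fell by 1.78 ± 0.51 on the log2 scale (adjusted p = 0.0188, edgeR). Prim1, the catalytic primase subunit, fell by 1.18 ± 0.38 (adjusted p = 0.0321). Pola1, the catalytic subunit of the polymerase that extends primers, and Pold1, that of the main lagging-strand polymerase, did not pass, at -0.63 ± 0.28 (adjusted p = 0.122) and -0.38 ± 0.15 (adjusted p = 0.0847), though Pola1 passed with the block (adjusted p = 0.0145). Pold1 was among the evenest members, at 38.8 over 52.8 to 70.0 CPM against 32.2 over 42.6 to 51.7.

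The clamp Pcna, which tethers polymerases to DNA, ran from 51.2 over 78.4 to 111 CPM in post-tamoxifen and from 38.6 over 50.2 to 59.0 in ex-Foxp3 fl/fl cells, and fell by 0.75 ± 0.25 on the log2 scale (adjusted p = 0.0385, edgeR). Of the subunits of replication factor C, which loads the clamp, Rfc4 fell by 1.72 ± 0.44 (adjusted p = 0.0067) and Rfc5 by 0.85 ± 0.25 (adjusted p = 0.0192). The large subunit Rfc1 had the smallest fold change of all 38, -0.053 ± 0.16 (adjusted p = 0.871), with 66.5 over 106 to 161 CPM against 90.1 to 127. Rfc2 and Rfc3 were at -0.27 and -0.58 and Dscc1, of an alternative loader, at -1.85 ± 0.70 (adjusted p = 0.0647), and none of these passed, but Dscc1 did with the block (adjusted p = 0.0356).

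The genes that finish and repair new strands all fell. Fen1, which trims the flaps of lagging-strand fragments, ran from 23.5 over 45.2 to 91.5 CPM in post-tamoxifen and from 19.7 over 23.0 to 26.7 in ex-Foxp3 fl/fl cells (log2 fold change -1.15 ± 0.30, adjusted p = 0.00847, edgeR). Lig1, the ligase that seals them, ran from 55.4 over 98.7 to 189 CPM against 41.5 over 45.3 to 56.8 (-1.22 ± 0.34, adjusted p = 0.0161). Ung, which removes uracil from DNA, fell by 1.83 ± 0.52 (adjusted p = 0.0134), with every ex-Foxp3 library (0.768 to 5.05 CPM) below every post-tamoxifen one (7.07 to 17.3). Exo1, an exonuclease of mismatch repair, fell by 2.40 ± 0.79 (adjusted p = 0.0356) from a low level of 0 to 17.4 CPM. Ung, Mcm2, Mcm5 and Mcm10 were the 4 members with no overlap in this comparison, where 3.2% of tested genes had all ex-Foxp3 libraries below all post-tamoxifen ones.

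Rpa2, of the complex that coats single strands, fell by 0.76 ± 0.22 on the log2 scale (adjusted p = 0.0172, edgeR), while Tipin, which protects stalled forks, was at -0.60 and did not pass. Both subunit genes of ribonucleotide reductase fell: Rrm1 by 1.33 ± 0.40 (adjusted p = 0.0264) and Rrm2 by 2.73 ± 0.79 (adjusted p = 0.0193). Rrm2 was 119, 108 and 169 CPM in post-tamoxifen fl/fl libraries 1 to 3 and 7.85, 26.5 and 20.1 in 4 to 6, against 17.8, 15.9 and 22.4 in ex-Foxp3 libraries 1 to 3 and 4.08, 2.46 and 6.52 in 4 to 6. The full groups of Rrm2 overlap, but within each number range they do not. Dut, which keeps dUTP out of DNA, fell by 0.90 ± 0.30 (adjusted p = 0.0385), whereas the thymidylate makers Tyms (-0.59 ± 0.32, adjusted p = 0.225) and Tk1 (-1.01 ± 0.37, adjusted p = 0.0644) did not pass, but Tk1 did with the block (adjusted p = 0.0186).

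Of the genes that pack new DNA, Chaf1a, the large subunit of the histone chaperone CAF-1, fell by 2.13 ± 0.64 on the log2 scale (adjusted p = 0.0234, edgeR). Its partner Chaf1b (-0.52) and the histone mRNA binder Slbp (-0.42) did not pass, but Slbp did with the block (adjusted p = 0.0389). E2f1, itself an E2F gene, was at -1.42 ± 0.75 (adjusted p = 0.215), with 0 to 12 CPM per post-tamoxifen fl/fl library.

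The count depended on which libraries entered. The number ranges were picked from these members' own levels. Calls within them, here and below, therefore describe these libraries and are no independent test. Within numbers 1 to 3, 29 members were called lower, where 11% of tested genes were called in either direction, with a median log2 fold change of -1.46. Within numbers 4 and above 4 of the 38 were (Mcm2, Mcm3, Pole and Rrm2), with a median of -0.44, where 12.4% of tested genes were called in either direction. The share of tested genes called lower there is not given, so the members' share was not shown to be above it. The library numbers were taken to pair the samples in this comparison, and the fit with the number as a block called 28 members (20.8% of tested genes). Within numbers 4 and above the log2 fold change was -0.50 ± 0.17 for Mcm2 (adjusted p = 0.0415, edgeR), -0.62 ± 0.17 for Mcm3 (adjusted p = 0.00703), -1.41 ± 0.32 for Pole (adjusted p = 0.00166) and -2.01 ± 0.51 for Rrm2 (adjusted p = 0.00451). Without post-tamoxifen fl/fl library 3, which was low in Foxp3 and highest in myeloid markers, 8 were called (12.4% of tested genes), and without library 2, 12 (11.5%). Without control 1 and fl/fl 1 and 3, the post-tamoxifen libraries highest in myeloid or B cell markers, 4 were called (11.6%), with a median of -0.67. Mcm2 and Mcm3 were called in each of 12 fits that left out a library and each of 12 other alternatives.

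**Figure D4:**
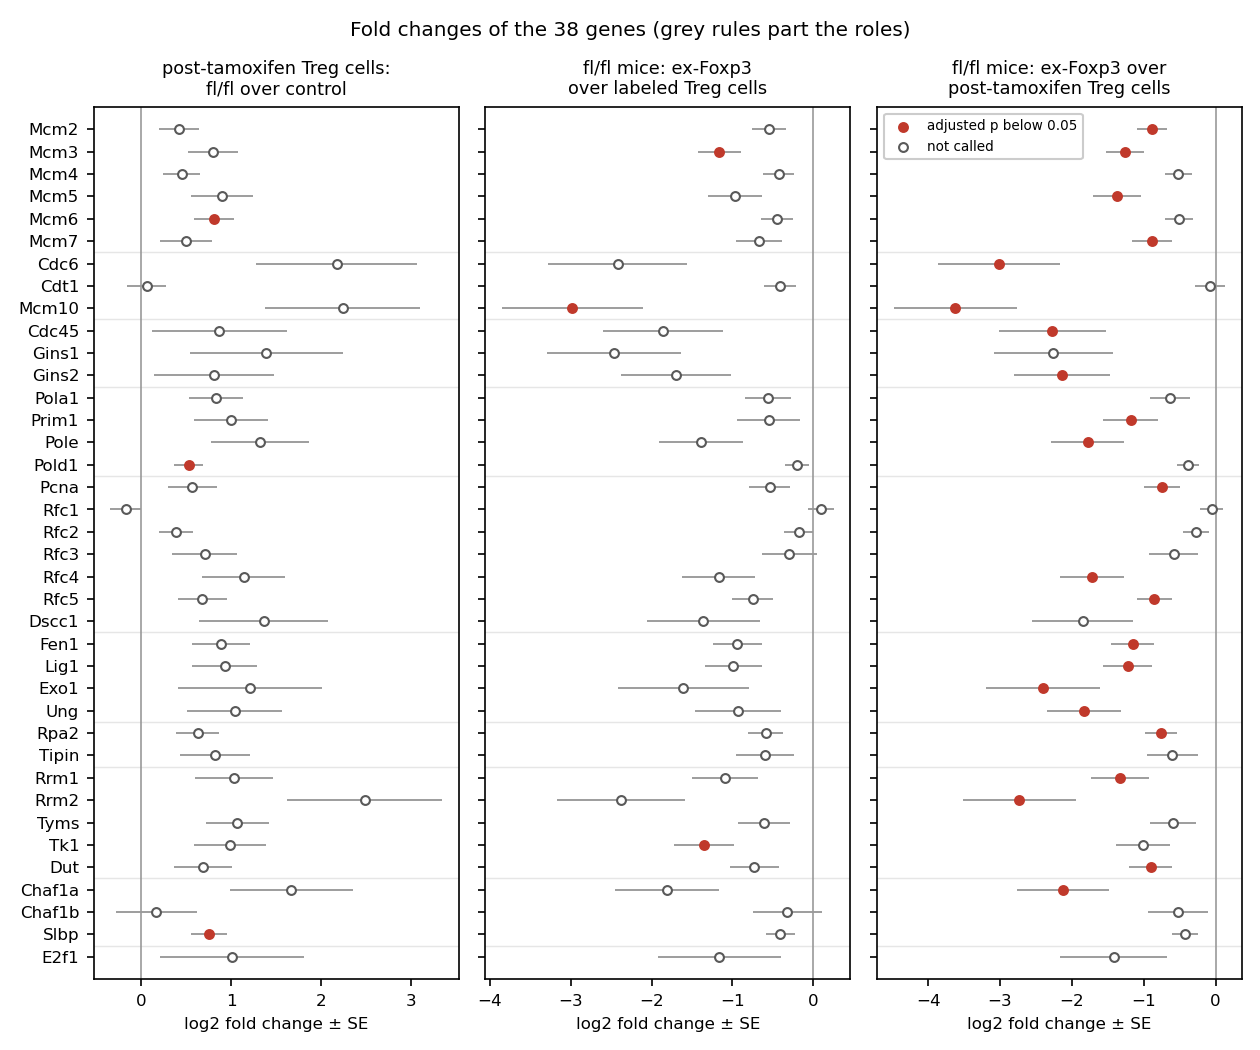
Log2 fold change ± SE (x axis) of each of the 38 genes (rows, ordered by role) in 3 comparisons (post-tamoxifen fl/fl over control, ex-Foxp3 over labeled fl/fl, and ex-Foxp3 over post-tamoxifen fl/fl cells), with filled red points where the adjusted p was below 0.05. In ex-Foxp3 over post-tamoxifen fl/fl cells 22 points are filled and all lie left of 0; in post-tamoxifen fl/fl over control cells 3 are filled and 37 lie right of 0.

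Controls gave no call in the same comparison of populations. None of the 38 genes was called between ex-Foxp3 and post-tamoxifen control cells by edgeR or DESeq2 (5.33% of tested genes were, by edgeR), and none reached an unadjusted p below 0.05 (15.5% of tested genes did). The median log2 fold change was -0.22, from -1.45 for Cdc45 to 0.40 for Pola1, and it was -0.051 within numbers 4 and above and -0.074 without the post-tamoxifen libraries highest in myeloid or B cell markers. Mcm7 was the 1 member whose ex-Foxp3 libraries (53.2 to 71.6 CPM) all lay below the post-tamoxifen ones (74.5 to 107), as in 1.7% of tested genes. Post-tamoxifen control 2 lay close to ex-Foxp3 control 2 in Foxp3 (123 against 122 CPM) and in the sums of Treg markers (1991 against 2179.9) and myeloid markers (41.0 against 42.0). Leaving out any 1 library gave 0 calls, with medians from -0.29 to -0.077. Among libraries numbered 4 and above, Mcm5 was called (-1.05 ± 0.27, adjusted p = 0.00775, edgeR), where 6.99% of tested genes were. The difference between genotypes in this step, a test added after the other results were seen, called 0 members by edgeR and DESeq2 (0.0504% of tested genes), with 8 at an unadjusted p below 0.05 (9.79% of tested genes) and a median of -0.87. Its smallest adjusted p among members was 0.359, for Rpa2 (-0.96 ± 0.33). Within numbers 1 to 3 it called 5 members, Lig1, Mcm3, Mcm5, Mcm6 and Slbp, with log2 differences from -0.97 to -1.54 (0.585% of tested genes). In that range, picked from these same values, controls 2 and 3 held Y-linked reads and no fl/fl library did. These 5 calls therefore cannot be assigned to genotype alone. So over all libraries the step was not shown to differ between genotypes. These comparisons share the post-tamoxifen and ex-Foxp3 libraries with those above and below.

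Between ex-Foxp3 and labeled cells, both marked by Cre, 3 members were called lower in ex-Foxp3 fl/fl cells (2.04% of tested genes were called lower, 4.09% in either direction), 37 of 38 fold changes were negative, and the median was -0.84. Mcm3 ran from 89.0 over 134 to 216 CPM in labeled cells, all above the 49.1 to 81.0 of ex-Foxp3 cells, the 1 member without overlap (1.3% of tested genes). It fell by 1.16 ± 0.27 on the log2 scale (adjusted p = 0.00987, edgeR). Tk1, the salvage kinase for thymidine, ran from 22.5 over 31.6 to 51.0 CPM in labeled and from 7.05 over 11.1 to 24.6 in ex-Foxp3 cells, a fall of 1.35 ± 0.37 (adjusted p = 0.0322). Mcm10 fell by 2.98 ± 0.87 (adjusted p = 0.0466).

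The library numbers were taken to pair the samples in this comparison. A fit with the number as a block called 15 members lower (9.0% of tested genes in either direction). Among them were Rrm2 (-2.19 ± 0.38, adjusted p = 0.000626, edgeR), Chaf1a (-1.51 ± 0.32, adjusted p = 0.00146), Fen1 (-0.78 ± 0.18, adjusted p = 0.0037) and Pole (-1.10 ± 0.28, adjusted p = 0.0124). Within numbers 1 to 3, a range picked from these same values, 22 members were called (5.26% of tested genes) and the median was -1.27. Within numbers 4 and above only Mcm3 was called (-0.70 ± 0.16, adjusted p = 0.0118), where 1.8% of tested genes were, and the median was -0.14. Mcm3 was called in each of 12 fits that left out a library and 10 other alternatives. Leaving out single libraries took the count to 1 (without ex-Foxp3 1, 2, 4 or 6 or labeled 1, 2 or 3), 2 (without ex-Foxp3 5), 5 (without labeled 4) or 6 (without labeled 6).

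Ex-Foxp3 against labeled controls gave 0 calls among the 38 by edgeR and DESeq2 (0.353% of tested genes by edgeR), with 9 members at an unadjusted p below 0.05 (9.6% of tested genes). The median was -0.56 and 35 of 38 fold changes were negative. It was -0.81 within numbers 1 to 3, -0.12 within numbers 4 and above and -0.30 without controls 2 and 3. Pold1 came closest, at 46.0, 57.9, 57.3, 35.4 and 42.7 CPM in labeled and 31.6, 40.7, 29.0, 29.2 and 38.7 in ex-Foxp3 controls (log2 fold change -0.50 ± 0.17, adjusted p = 0.244). In the fit with the library number as a block 3 members were called lower (2.13% of tested genes in either direction): Chaf1a (-1.59 ± 0.36, adjusted p = 0.0123), Pole (-1.29 ± 0.31, adjusted p = 0.0246) and Dut (-0.77 ± 0.20, adjusted p = 0.033). The difference between genotypes in this step called none of the 38 by edgeR or DESeq2 (0.0% of tested genes), with 1 member, Rpa2, at an unadjusted p below 0.05 (2.38% of tested genes) and a median of -0.30, which was -0.55 without controls 2 and 3.

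Between genotypes, members were called only in post-tamoxifen cells. In these Treg cells without the tdTomato mark, 3 members were called higher in fl/fl mice (3.9% of tested genes were called higher, 7.23% in either direction), and 25 of 38 reached an unadjusted p below 0.05 (24.3% of tested genes did). Of the fold changes 37 were positive, with a median of 0.85, and Rfc1 (-0.17) was the 1 below 0. Slbp, which guards the mRNAs of replication histones, was 76.1, 63.4, 67.4, 48.1 and 56.8 CPM in controls and ran from 74.3 over 103 to 138 in fl/fl mice, where only control 1 reached the range of the lower fl/fl libraries (log2 fold change 0.76 ± 0.20, adjusted p = 0.0141, edgeR). Mcm6 was 202, 130.5, 123, 122 and 98.4 CPM in controls and ran from 157 over 239.6 to 297 in fl/fl mice (0.81 ± 0.22, adjusted p = 0.0221). Pold1 was 49.5, 33.5, 34.9, 36.1 and 38 CPM in controls and ran from 38.8 over 52.8 to 70.0 in fl/fl mice (0.53 ± 0.16, adjusted p = 0.0416). In all 3 genes control 1, the shallowest library, was the control that overlapped.

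Larger but more variable differences did not pass, such as Rrm2 (2.48 ± 0.86, adjusted p = 0.0731, edgeR), Mcm10 (2.24 ± 0.86, adjusted p = 0.103) and Tyms (1.07 ± 0.35, adjusted p = 0.0569). Rrm2 in post-tamoxifen controls was 45.7, 6.83, 17.5, 4.70 and 7.78 CPM, so that the fl/fl libraries 4 to 6 (7.85 to 26.5) lay within the range of all controls. Only control 1 lay above all of these fl/fl libraries, and control 3 lay between them. Controls 2, 4 and 5 lay below them, control 5 only just. Within numbers 1 to 3, 26 members were called higher (13.4% of tested genes in either direction) and the median was 1.10. This range was picked from these same values, so its calls are a description. In it, controls 2 and 3 held Y-linked reads (430.1 and 456 CPM) and the fl/fl libraries held 0 CPM. Control 2 was also low in Foxp3 (123 CPM). The part of these differences in the calls cannot be told apart from that of genotype. Within numbers 4 and above only Mcm6 was called (0.61 ± 0.16, adjusted p = 0.0314), where 2.1% of tested genes were, with a median of 0.41. No member was called without control 4, without control 2 and fl/fl 3, the libraries low in Foxp3, or without control 1 and fl/fl 1 and 3, those highest in myeloid or B cell markers. The count rested on other single libraries too: it was 2 without control 2, 1 without control 3 or 5 or without fl/fl 1, 2 or 3, 5 without control 1 or fl/fl 5, 8 without fl/fl 6 and 10 without fl/fl 4.

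Labeled and ex-Foxp3 cells gave no call between genotypes. In labeled cells 0 members were called by edgeR and DESeq2 (0.0101% of tested genes by edgeR), 2 had an unadjusted p below 0.05 (9.41% of tested genes), and the median was 0.27 with 34 positive fold changes. That median was 0.12 without fl/fl 1, 0.42 without control 3, 0.61 without controls 2 and 3 and 0.52 within numbers 1 to 3. The 2 were Cdt1, at 28.3, 14.2, 33.8, 13.9 and 27.9 CPM in controls and 30.4 over 34.4 to 38.6 in fl/fl mice (0.54 ± 0.22, adjusted p = 0.437), and Rpa2 (0.49 ± 0.24, adjusted p = 0.528). In ex-Foxp3 cells 0 were called by both tools (0.181% by edgeR), 0 had an unadjusted p below 0.05 (8.84%), and the fold changes split evenly, 19 above and 19 below 0, around a median of -0.0036 (0.10 without controls 2 and 3). The members' fold changes there ran from -0.67 for Gins1 to 0.48 for Chaf1a.

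Between labeled and post-tamoxifen Treg cells, both Foxp3 positive, no member was called in the fit without a block. In controls 0 were called by edgeR and DESeq2 (7.93% of tested genes by edgeR), with 3 at an unadjusted p below 0.05 (20.1%), Tyms, Slbp and Pold1. The median was 0.34, with 31 positive, but it was -0.11 within numbers 4 and above and -0.12 without controls 2 and 3. With the library number as a block, Dut, Rrm2, Slbp and Tyms were called higher in labeled controls. Their adjusted p ran from 0.0133 to 0.0458 (edgeR), where 12.9% of tested genes were called. In fl/fl mice 0 were called by both tools (4.58% by edgeR), 0 had an unadjusted p below 0.05 (16.6%), and the median was -0.21, which became -0.049 without the libraries low in Foxp3 and 0.17 without those highest in myeloid or B cell markers. Among libraries numbered 4 and above, Pole (-1.45 ± 0.34, adjusted p = 0.00278) and Mcm5 (-0.71 ± 0.22, adjusted p = 0.0308, edgeR) were lower in labeled fl/fl cells, where 7.79% of tested genes were called. The difference between genotypes in this step called none of the 38 by either tool (0.0202% of tested genes by edgeR), with 2 at an unadjusted p below 0.05 (7.73%), Pold1 and Ung, and a median of -0.51, which was -0.11 within numbers 4 and above, -0.13 without controls 2 and 3 and -0.30 without the libraries highest in myeloid or B cell markers.

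In the chimera, where the YFP sort takes the cells that express Cre, none of the 38 replication genes was called by edgeR or DESeq2 (2.41% of tested genes by edgeR). An unadjusted p below 0.05 was reached by 3 members (13.4% of tested genes). The median log2 fold change was -0.095, beside 0.00085 over all tested genes, and 28 of 38 were negative. Tk1 had the smallest p, at 12.2, 17.0, 17.4 and 20.8 CPM in controls and 13.8, 9.33, 7.58 and 10.1 in knockouts, with knockout 1 above control 1 (-0.70 ± 0.26, adjusted p = 0.162). Mcm5 was 56.4, 60.8, 50.6 and 57.7 CPM in controls and 43.9, 40.2, 43.8 and 53.6 in knockouts, of which only knockout 4, the one whose Uhrf1 was not lower, reached the controls (-0.32 ± 0.13, adjusted p = 0.263). Rrm1 was the third (-0.37 ± 0.17, adjusted p = 0.314).

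Controls 3 and 4 of the chimera, with more B cell transcripts (123 and 125 CPM against 9.03 and 12.7) and more G2/M transcripts (794 and 709 against 345 and 309), also had the most Rrm2 (23.7 and 22.6 against 7.62 and 4.24 CPM). Without both, no member was called and the median became 0.011. Without control 1, which held Y-linked reads, it was -0.097, and without knockout 4 it was -0.12, again with no call.

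Genes of the same processes outside the 38 were also examined between ex-Foxp3 and post-tamoxifen fl/fl cells, where the median over all tested genes was 0.015, 9.39% of them were called lower and 575 of 9921 higher. Of 17 other origin genes 4 were called lower and none higher (median -0.27), among them the licensing inhibitor Gmnn (-1.39 ± 0.42, adjusted p = 0.0223, edgeR) and the origin binder Orc1 (-3.14 ± 1.10, adjusted p = 0.0474). Of 21 other polymerase and fork genes 6 were lower (median -0.32), led by the fork protector Timeless (-1.18 ± 0.24, adjusted p = 0.000804), Prim2 and Dna2. Of 17 nucleotide genes 8 were lower and 1 higher (median -0.53), led by Impdh2, of guanine nucleotide synthesis (-0.95 ± 0.13, adjusted p = 9.52e-06). Of 10 chromatin genes 5 were lower (median -0.43), with Cdca7 at -0.93 ± 0.22 (adjusted p = 0.00315).

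Of 17 checkpoint and recombination genes 8 were lower (median -0.79), among them Fanci (-2.11 ± 0.41, adjusted p = 0.000444, edgeR). Of 17 genes of the E2F and Rb families and S phase cyclins 4 were lower, such as the activator E2f3 (-1.02 ± 0.27, adjusted p = 0.00738), and 1 higher, the Rb relative Rbl2 (0.42 ± 0.10, adjusted p = 0.00451). Of the 34 G2/M genes 21 were lower (median -2.40). Their summed level averaged 5641 CPM in post-tamoxifen and 1039 in ex-Foxp3 fl/fl libraries 1 to 3. In libraries 4 to 6 it averaged 644 and 467 CPM. Of 13 quiescence genes 3 were higher and none lower: the Cdk inhibitor Cdkn1b (0.39 ± 0.077, adjusted p = 0.00056), Tcf7 (0.75 ± 0.16, adjusted p = 0.00173) and Btg2 (0.38 ± 0.088, adjusted p = 0.00298). Between genotypes in post-tamoxifen cells, Cdca7 (0.94 ± 0.24, adjusted p = 0.0112) was called higher in fl/fl mice, as were 2 of the 34 G2/M genes.

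By group mean, post-tamoxifen fl/fl cells held the highest level for 32 of the 38 genes and labeled fl/fl cells for 5, and Rfc1 was highest in post-tamoxifen controls. An ex-Foxp3 group held the lowest level for 31 genes, that of fl/fl mice for 17 and that of controls for 14. The ratio of the highest to the lowest of the 6 group means was 12.2 for Mcm10, 8.02 for Cdc6 and 6.52 for Rrm2, and 1.25 for Rfc1, 1.28 for Rfc2 and 1.44 for Mcm4. In the summed level, the 4 groups other than fl/fl post-tamoxifen and fl/fl labeled had means of 1189 to 1587 CPM with SDs of 76.3 to 511, against 1910 ± 783 (n = 6) and 2156 ± 912 (n = 6) in those.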

How the data were processed

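RNA from 41 sorted libraries was sequenced with a stranded total RNA kit for small inputs, per the labels' protocols. The deposited values are raw read counts per gene, with bcl2fastq 2.17.1.14, TopHat2 2.1.0 and mm10 named in the submitters' processing notes. The annotation and the strand setting of the counting are not given in the sources used here. The labels call the libraries biological replicates. Members were matched by symbol. The table's Ensembl identifier belongs to another gene for 8 of them (Cdt1, Gins2, Fen1, Lig1, Mcm7, Rfc4, Rfc5 and Tk1), but the coordinates of all 38 overlap the GENCODE gene of that symbol.

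Counts were tested with edgeR 4.0.16 (R 4.3.3, limma 3.58.1), using TMM scaling, filterByExpr by group, robust quasi-likelihood fits and Benjamini-Hochberg adjustment over all tested genes, at 0.05. The chimera fit used 8 libraries and 9569 genes, the pulse-chase fit 33 libraries and 9921 genes, both without a block. CPM are on TMM-scaled library sizes, logs use log2(CPM + 1), and RPKM divide by the length of the gene's merged GENCODE exons. DESeq2 1.42.0 was an alternative. Values were summarised in Python 3.11.15 with pandas 2.3.3, numpy 2.4.6 and matplotlib 3.10.9. The scripts were tested on simulated data. No pair of replicates agreed within sampling noise (lowest chi-square per degree of freedom 2.57 over 87 pairs).

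Library numbers were taken to pair samples where every same-numbered pair of deviations from group means correlated above 0.1. This held for ex-Foxp3 against labeled cells in controls (correlations from 0.141 up to 0.303) and in fl/fl mice (from 0.144 up to 0.361). It also held in fl/fl mice for post-tamoxifen cells against labeled (from 0.247 up to 0.439) and ex-Foxp3 cells (from 0.126 up to 0.394). The split by library number enters these deviations, so the rule cannot tell that split from a pairing of samples. The members and the gene lists were chosen with earlier results of these data known. All members may be named, and of each other list at most the 4 called genes with the smallest p in a comparison. The genes most like the module were the 10 with the highest correlation with the members' mean.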

Additional observations from a re-analysis of the deposited data

Results flagged for a closer look

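Of the members' levels by group tested for a library far from the others, 12 of 312 stood out, and chance alone marks about 1 in 20 such groups. In post-tamoxifen control 1, which has the smallest total (781437 counts), 6 genes lay above the other 4 libraries: Mcm2 at 131 CPM (others 62.1 to 80.9), Cdc6 at 15.2 CPM (others 1.45 to 3.97), Cdc45 at 40.6 CPM (others 2.93 to 7.14), Pold1 at 49.5 CPM (others 33.5 to 38), Rfc1 at 156 CPM (others 108 to 117) and Rfc5 at 31.7 CPM (others 13.4 to 18.3). In ex-Foxp3 control 2, Cdc6 was 9.69 CPM (others 0.521 to 1.75) and Lig1 was 73.0 CPM (others 36.0 to 46.7). Cdc6 was also high in ex-Foxp3 fl/fl library 3, at 5.24 CPM (others 0.768 to 2.12). In the chimera, Cdc45 was 12.3 CPM in control 4 (others 4.43 to 4.95) and Rfc2 was 39.5 CPM in control 1 (others 27.7 to 29.7). The summed level of the 38 genes was 1379 CPM in knockout 4, whose Uhrf1 was not lower than in controls (other knockouts 1244 to 1262).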

How the results depend on the processing

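No called gene changed sign in any alternative, but medians of comparisons without calls did: labeled against post-tamoxifen controls went from 0.34 to -0.11 within numbers 4 and above and to -0.12 without controls 2 and 3, labeled against post-tamoxifen fl/fl cells from -0.21 to 0.17, and the chimera from -0.095 to 0.011, as given above, and ex-Foxp3 cells between genotypes from -0.0036 to 0.10 without controls 2 and 3. Counts of called members that moved by over 1.5 times were as follows. In post-tamoxifen cells between genotypes (3 called), 8 were called by DESeq2, 0 with only the groups compared in the fit, 26 within library numbers 1 to 3, 1 within numbers 4 and above, 1 without controls 2 and 3, and 0 without either set of doubted post-tamoxifen libraries. For ex-Foxp3 against labeled fl/fl cells (3), it was 1 with no count filter, 6 by DESeq2, 22 within numbers 1 to 3 and 1 within numbers 4 and above, with a median log2 fold change of -0.14 in place of -0.84. For ex-Foxp3 against labeled controls (0), it was 1 with only the groups compared and 3 within numbers 1 to 3, and for labeled against post-tamoxifen controls (0) it was 1 in each of these. Within numbers 4 and above, 2 were called for labeled against post-tamoxifen fl/fl cells (0) and 1 for ex-Foxp3 against post-tamoxifen controls (0). For ex-Foxp3 against post-tamoxifen fl/fl cells (22), it was 4 within numbers 4 and above (median -0.44 in place of -1.08), 8 without the libraries low in Foxp3 and 4 without those high in myeloid or B cell markers. The genotype difference in that step (0) gave 5 within numbers 1 to 3, and its median was -0.35 in place of -0.87 within numbers 4 and above. The alternatives by library number and by doubted library were chosen after seeing the data, and the cause of these shifts was not tested.

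With the library number as a block, 22 members were called in post-tamoxifen cells between genotypes (16.6% of all tested genes). Same-numbered correlations there ran from -0.084 to 0.245. Control and fl/fl libraries of one number come from different mice, so a block between genotypes does not pair samples of one animal. The block called 4 members in labeled against post-tamoxifen controls (12.9%, correlations from -0.023 to 0.254). It called 1 (1.01%) in the genotype difference from post-tamoxifen to ex-Foxp3 cells. By the correlation rule alone, the numbers were not taken to pair the samples in these comparisons. Where the numbers were taken to pair the samples, the block gave 3 for ex-Foxp3 against labeled controls and 15 for fl/fl mice. The block gave 28 in place of 22 for ex-Foxp3 against post-tamoxifen fl/fl cells, and it moved no other count by over 1.5 times.

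Leaving out 1 library at a time gave 0 to 10 called members in post-tamoxifen cells between genotypes, 1 to 6 in ex-Foxp3 against labeled fl/fl cells, 8 to 28 in ex-Foxp3 against post-tamoxifen fl/fl cells, and 0 in each of the other comparisons. Cdc6, Cdc45, Gins1, Gins2, Dscc1, Exo1 and E2f1 had 0 reads in some pulse-chase libraries.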
